A study of Mus musculus with 18 samples.

Results

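The NF-κB subunits and their inhibitors were described on 18 Affymetrix arrays of CD4 T cells sorted from mice. The 10 genes were Rel, Rela, Relb, Nfkb1 and Nfkb2, which encode the subunits, Nfkbia, Nfkbib, Nfkbie and Bcl3, which encode inhibitors of the IκB family, and Tnfaip3, which encodes the feedback enzyme A20. A probe set, the unit of measurement on these arrays, was taken where its deposited gene name equalled one of these symbols. This gave 18 of 45101 probe sets on 10 of the arrays and 14 of 22690 probe sets on the other 8, and all 10 genes, of 20765 and 13212 genes with a single name, had at least 1 probe set on each kind of array. All 18 and all 14 were tested, since no filter on low values was applied.

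All mice were 6 to 8 weeks old, and the cells were enriched for CD4 on beads and then sorted by GFP in 2 rounds. The 10 arrays held 5 samples labelled Foxp3-positive (Treg, regulatory T cells) and 5 labelled Foxp3-negative (Teff), taken from the spleen and lymph nodes. The mice were of the strain Foxp3DTR and had been given DT, and the groups are called DT Treg and DT Teff. In such mice Foxp3-expressing cells carry the receptor for diphtheria toxin, so that the toxin depletes them. The 8 arrays came from Foxp3GFP mice, in which Foxp3-expressing cells carry GFP, and held 2 arrays each of 4 groups. Spleen Treg and spleen Teff stand for cells of spleen and lymph nodes, and tumour Treg and tumour Teff for cells of tumours grown from the mouse melanoma line B16. The labels do not say whether replicates came from separate mice, so p-values measure only the spread between these samples, which may be technical. The 2 tables of log2 values were normalised separately, and levels were never set across them.

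Foxp3, on the 1 probe set that bears its name (1420765_a_at), went against the label on 7 of the 9 arrays labelled Treg. Its log2 value was 9.97 ± 0.029 (SD, n = 2) on the spleen Treg arrays and 3.12 ± 0.10 (n = 2) on the spleen Teff arrays, but 3.22 ± 0.127 in DT Treg against 3.19 ± 0.181 in DT Teff (n = 5 each), and 3.25 ± 0.074 in tumour Treg against 3.15 ± 0.036 in tumour Teff (n = 2 each). The tumour arrays were of the same labelled strain as the spleen Treg arrays, on which this probe set read high. Whether it reads the Foxp3 alleles of the DT and tumour mice was not tested, nor was any other cause of the low values. By themselves the low values do not show that the cells lacked Foxp3. Treg and Teff therefore stand for the labels throughout. Of 9 measured Treg marker genes, Foxp3 included, 7 were higher in Treg in DT-treated mice, 9 in spleen and 6 in tumour, and none was lower. Not called in tumour were Foxp3, Gpr83 (difference 0.11) and Nrp1 (0.10). These 3 were lower in tumour Treg than in spleen Treg (-6.72, -4.91 and -0.91), and 3 other Treg markers were higher. The 10 T cell markers were at a mean log2 value of 11.0 to 11.4 on all 18 arrays, but 5 of them were higher and 2 lower in tumour Treg than in tumour Teff. DT Treg replicate 4 and DT Teff replicates 4 and 5 correlated less with their own group (mean r of 0.981, 0.972 and 0.977) than the other arrays of that table (0.986 to 0.992), and DT results were also computed without these 3 arrays. Xist, made from the inactive X chromosome, was at 9.61 or more on the 4 spleen arrays and at 3.63 or less on the 4 tumour arrays over its 2 probe sets, and the Y-linked Ddx3y was at 3.64 or less and at 8.29 or more over its 3, so that tissue and the sex of the mice cannot be told apart between tumour and spleen.

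NF-κB is a family of dimeric transcription factors. In resting cells the dimers are held back by IκB proteins, which are marked by the IκB kinase complex and degraded when antigen, cytokine or TNF family receptors signal. This canonical route frees dimers that hold Rel (c-Rel) or Rela (p65) with p50, the product of Nfkb1. In the noncanonical route the Nfkb2 product p100 is cut to p52, which pairs with Relb. Several inhibitors are themselves induced by NF-κB and shut the response down again, among them IκBα (Nfkbia) and A20 (Tnfaip3). In the thymus c-Rel takes part in the induction of Foxp3, and mature Treg need NF-κB for their effector state.

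The promoters of the members are shown first, since feedback through sites for NF-κB in them is part of how the family is known to work. Windows of 250 bases before to 50 bases after each gene start were taken from RefSeq (GRCm38.p6), and both strands were searched for the 10-base κB consensus. Of the members, 8 have an entry in that table, and Nfkb1 and Relb are named only. A match was present for 6 of the 8 genes, against 9.55% of 27025 genes with a promoter in the table. The windows that hold matches for the genes the results turn on are printed 5′ to 3′ on the gene's strand, with the matches in capitals. Each was read from the position given after its name: Nfkb2 at chr19:46304487-46304786 (plus strand), Nfkbia at chr12:55492598-55492897 (minus), Bcl3 at chr7:19822706-19823005 (minus), Nfkbie at chr17:45555450-45555749 (plus), Rel at chr11:23770920-23771219 (minus) and Tnfaip3 at chr10:19015361-19015660 (minus).

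Nfkb2: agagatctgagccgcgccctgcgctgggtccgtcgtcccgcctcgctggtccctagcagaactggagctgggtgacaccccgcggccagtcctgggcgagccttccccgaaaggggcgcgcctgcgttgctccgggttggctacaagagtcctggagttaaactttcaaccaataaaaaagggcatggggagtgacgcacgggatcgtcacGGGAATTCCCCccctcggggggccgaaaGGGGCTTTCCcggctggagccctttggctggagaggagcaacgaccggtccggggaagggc

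Nfkbia: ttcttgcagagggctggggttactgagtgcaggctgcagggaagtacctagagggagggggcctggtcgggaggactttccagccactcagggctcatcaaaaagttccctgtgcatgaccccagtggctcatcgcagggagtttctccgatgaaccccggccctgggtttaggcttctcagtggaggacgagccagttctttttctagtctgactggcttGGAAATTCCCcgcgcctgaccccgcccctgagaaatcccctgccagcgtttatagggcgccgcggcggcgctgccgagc

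Bcl3: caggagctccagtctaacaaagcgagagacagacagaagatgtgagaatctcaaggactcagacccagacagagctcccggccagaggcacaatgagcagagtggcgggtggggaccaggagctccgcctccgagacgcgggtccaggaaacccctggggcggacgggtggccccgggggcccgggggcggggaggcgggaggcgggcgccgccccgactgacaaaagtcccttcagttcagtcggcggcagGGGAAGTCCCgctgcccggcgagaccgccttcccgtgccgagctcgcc

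Nfkbie: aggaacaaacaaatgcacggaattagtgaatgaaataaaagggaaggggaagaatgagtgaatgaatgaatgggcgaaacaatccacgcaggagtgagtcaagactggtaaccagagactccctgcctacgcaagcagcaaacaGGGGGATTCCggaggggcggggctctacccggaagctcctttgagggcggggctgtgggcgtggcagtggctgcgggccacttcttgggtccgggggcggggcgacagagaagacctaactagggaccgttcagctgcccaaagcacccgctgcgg

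Rel: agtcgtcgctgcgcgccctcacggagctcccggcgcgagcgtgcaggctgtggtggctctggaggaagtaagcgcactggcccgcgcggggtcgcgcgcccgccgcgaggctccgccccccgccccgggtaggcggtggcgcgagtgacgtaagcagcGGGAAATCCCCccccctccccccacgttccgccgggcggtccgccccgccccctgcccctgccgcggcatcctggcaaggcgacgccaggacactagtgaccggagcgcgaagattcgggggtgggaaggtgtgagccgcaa

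Tnfaip3: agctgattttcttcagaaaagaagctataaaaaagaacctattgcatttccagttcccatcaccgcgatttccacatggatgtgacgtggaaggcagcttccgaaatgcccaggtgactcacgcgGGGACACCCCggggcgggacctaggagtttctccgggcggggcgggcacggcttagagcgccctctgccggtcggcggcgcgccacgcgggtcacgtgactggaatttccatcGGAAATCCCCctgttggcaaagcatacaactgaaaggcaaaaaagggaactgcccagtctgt

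In the Nfkb2 window 3 matches formed 2 runs, since the matches that began 39 and 38 bases before the start overlap, and the last began 11 bases before it. Both other Nfkb2 starts in the table also had a match, but their windows overlap and share a site, which is the only match of the last window. The Nfkbia match began 29 bases before the start and the Nfkbie match 106 bases before it. In Rel a single run of 2 overlapping matches began 92 bases before the start. Tnfaip3 had 2 matches, 125 and 12 bases before this start, and none at its other start. The Bcl3 match lay just after the start, within the first transcribed bases. No match was found in the windows of Rela and Nfkbib. A match describes letters in the window and is no evidence of binding in these cells.

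**Figure D1:**
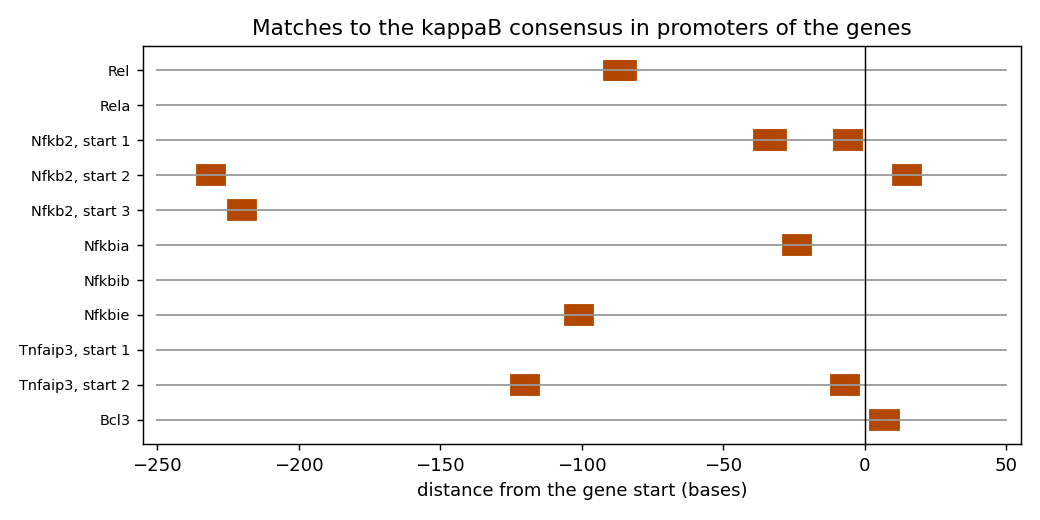
Matches to the 10-base κB consensus (boxes) in the promoter windows of the 8 members with an entry, by distance in bases from the gene start (vertical line). Of the 11 windows, 8 hold a match, and Rela, Nfkbib and 1 of 2 Tnfaip3 starts hold none. The windows of the last 2 Nfkb2 starts overlap and share a site.

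Across the study, most of the differences between groups that passed the test went towards Treg and towards the tumour. Differences are log2 differences from limma, and a probe set was called at a Benjamini-Hochberg adjusted p under 0.05 over all probe sets of its table. In DT-treated mice 3 of 18 probe sets were higher in Treg and 0 were lower (Bcl3, Nfkb2 and Nfkbia), where 3.86% of all 45037 probe sets tested were higher and 2.92% lower. In spleen 5 of 14 were higher and 0 lower (Bcl3, Nfkb2, Nfkbia, Rel and Relb), against 6.29% and 6.17% of all 22626 tested. In tumour 10 of 14 were higher and 0 lower, in 8 of the 10 genes, against 12.3% and 11.2%. Rela and Tnfaip3 were the genes with no call there. The median difference of the members was 0.13 in DT-treated mice, 0.27 in spleen and 0.49 in tumour. That of all probe sets was 0.0149, -0.0089 and 0.0024.

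Treg from tumour exceeded Treg from spleen in 10 of 14 probe sets and 7 genes and were lower in 0, where 10.7% of all probe sets were higher and 11.1% lower. Teff from tumour exceeded Teff from spleen in 5 and were lower in 1, which was Rel, against 6.96% and 7.08%. These 2 comparisons reuse the arrays of the Treg and Teff comparisons within each tissue. The test of whether the Treg minus Teff difference itself was larger in tumour than in spleen called 1 of 14 probe sets, an Nfkb2 probe set, where 2.44% of all were called higher and 2.67% lower.

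Markers of other cell types moved with these comparisons, and their part in the results was not tested. The mean log2 level of 8 plasmacytoid dendritic cell markers was 9.61 to 10.28 in tumour Teff, 6.74 to 7.13 in tumour Treg, 8.16 to 8.30 in spleen Teff and 7.30 to 7.50 in spleen Treg, and 7 of the 8 were lower in tumour Treg than in tumour Teff. In spleen 4 of the 8 were lower in Treg, and in DT-treated mice 3 of 9 were lower and 2 higher (group ranges 5.44 to 5.71 in Treg and 5.87 to 6.56 in Teff). The 12 macrophage and dendritic cell markers were at a mean of 6.11 to 6.56 in tumour Teff and 5.23 to 5.76 in tumour Treg, but they did not move as one. In tumour Treg 5 were lower than in tumour Teff, with Tyrobp at -4.94, and 2 were higher, Zbtb46 at 1.14 and Cd14 at 0.64. The median difference of the list in tumour was 0.33. In spleen 2 were higher in Treg, Lyz2 at 1.56 and Csf1r at 1.27. The 3 lower there were Tyrobp at -1.998, Itgax at -1.13 and Flt3 at -1.11. In DT-treated mice 1 was higher and 1 lower. Between tumour and spleen Treg 2 were higher and 3 lower, with Lyz2 at -2.45 and Csf1r at -1.65. Between tumour and spleen Teff 5 were higher and 2 lower. The T cell markers had a median Treg minus Teff difference of 0.31 in tumour, against 0.04 in spleen and -0.11 in DT-treated mice. Of 8 B cell markers, 4 were lower and 0 higher in tumour Treg than in spleen Treg (Cd22 at -1.74, Ms4a1 at -1.06, Cd79b at -1.01 and Cd79a at -0.54). These genes were picked out after their values were seen. Both CD8 T cell markers were lower in tumour Treg than in tumour Teff (Cd8a at -1.14 and Cd8b1 at -1.78). They were higher in tumour Teff than in spleen Teff, by 1.22 and 1.80, and neither was called between tumour and spleen Treg. The 6 melanoma markers were at 6.98 to 7.75 on the tumour arrays and 4.68 to 4.85 on the spleen arrays, and 5 of 6 were higher in tumour in both sorts. The 8 stromal and endothelial markers were at 6.01 to 7.17 in tumour and 4.80 to 4.96 in spleen. On the DT arrays the 3′ minus 5′ difference of the beta-actin control probe sets, a sign of RNA integrity, was 0.2541 to 0.4166 in Treg and 0.4203 to 0.5579 in Teff, while that of Gapdh overlapped between the groups. In sorted pools, fewer cells of a type and less RNA per cell cannot be told apart.

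**Figure D2:**
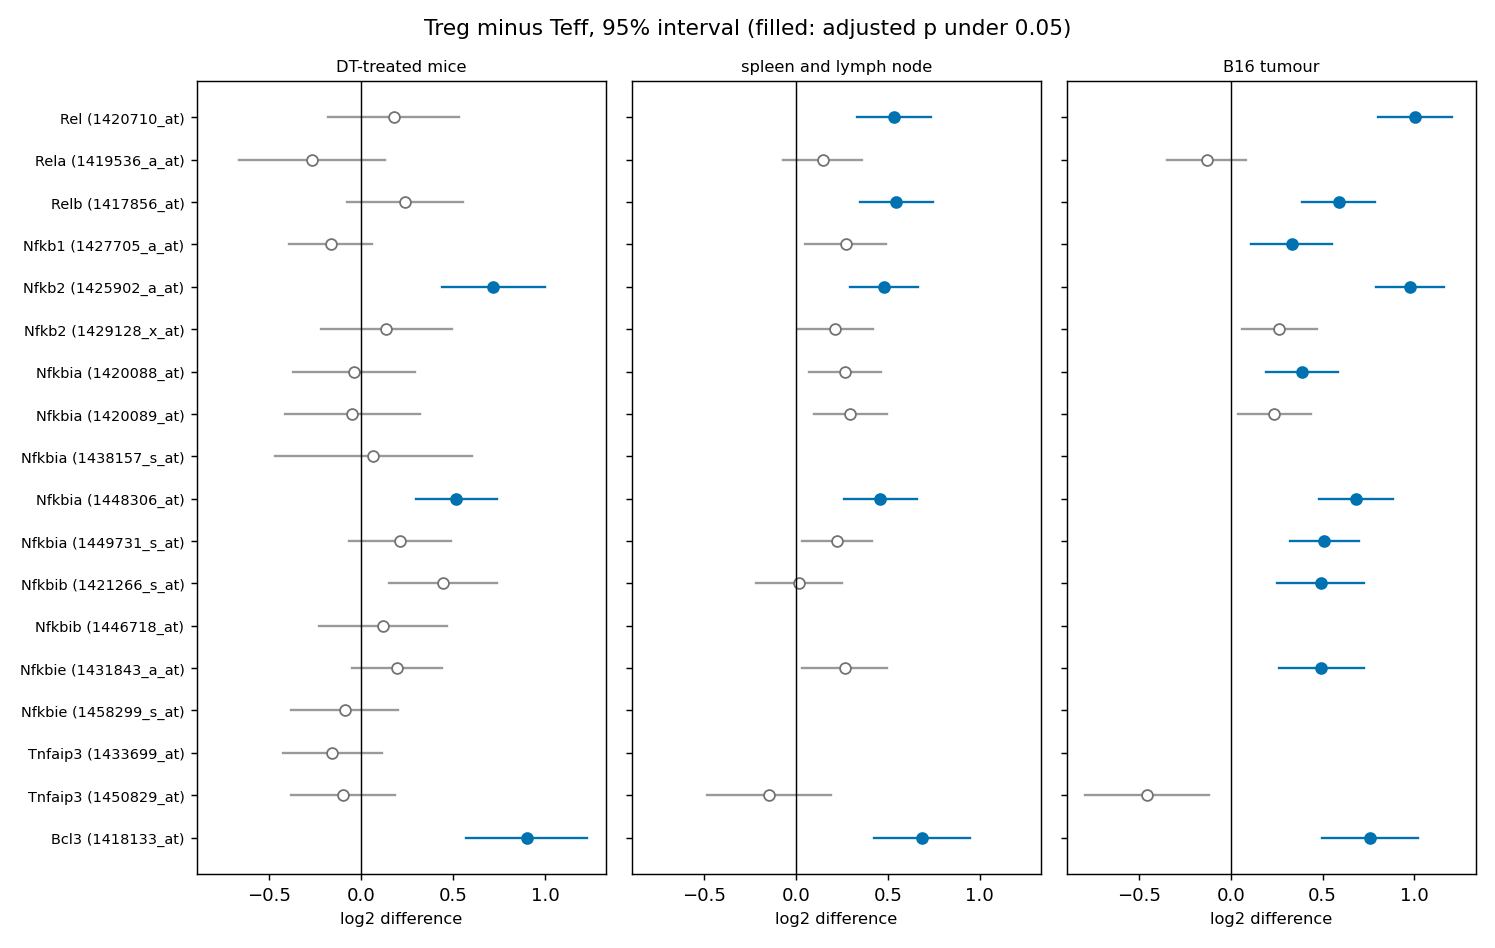
Log2 difference, Treg minus Teff, of every member probe set (point) with its 95% confidence interval (line) in 3 panels (DT-treated mice, lymphoid tissue, B16 tumour). Filled points had an adjusted p under 0.05, and all of them lie to the right of 0; probe sets without a point are not on the 8 arrays.

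Nfkb2, the noncanonical subunit gene, was higher in Treg and higher in tumour on probe set 1425902_a_at. It read 7.70, 7.86, 7.52, 7.37 and 7.67 in DT Treg and 6.85, 7.15, 6.74, 6.67 and 7.11 in DT Teff. Every DT Treg array was above every DT Teff array, and the difference was 0.72 (SE 0.129, 1.65-fold, adjusted p = 0.00485). On the 8 arrays it read 7.37 and 7.41 in spleen Teff, 7.84 and 7.91 in spleen Treg, 7.88 and 7.90 in tumour Teff and 8.85 and 8.89 in tumour Treg. Tumour Treg thus stood highest, spleen Teff lowest, and spleen Treg and tumour Teff lay close together between them. Nfkb2 was higher in Treg by 0.48 (SE 0.081, adjusted p = 0.00588) in spleen and by 0.98 (SE 0.081, 1.97-fold, adjusted p = 7.16e-05) in tumour. It was higher in tumour by 0.99 in Treg (1.99-fold, adjusted p = 7.81e-05) and by 0.50 in Teff (1.41-fold, adjusted p = 0.00533).

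The Treg minus Teff difference of this Nfkb2 probe set was 0.50 larger in tumour than in spleen (95% confidence interval 0.23 to 0.76, adjusted p = 0.0455). That call ended in 10 of 14 alternative settings, among them the removal of any 1 of the 8 arrays, with a highest adjusted p of 0.157. The spleen call ended without spleen Teff replicate 2 (adjusted p = 0.0537). The other Nfkb2 probe set, 1429128_x_at, of a type that can also bind related sequences, gave smaller differences of 0.14 in DT-treated mice, 0.21 in spleen and 0.26 in tumour, none of them called. On it tumour Treg were higher than spleen Treg by 0.36 (adjusted p = 0.0204), a call that ended in 4 alternatives.

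Relb, the partner of p52, read 7.66 and 7.65 in spleen Teff and 8.25 and 8.15 in spleen Treg, and 7.99 and 7.88 in tumour Teff and 8.51 and 8.54 in tumour Treg. Treg and Teff did not overlap in either tissue, but with 2 arrays a group the same held for Rela, which was not called. Relb was higher in Treg by 0.54 in spleen (SE 0.087, 1.46-fold, adjusted p = 0.0044) and by 0.59 in tumour (SE 0.087, 1.50-fold, adjusted p = 0.00155). Tumour Treg exceeded spleen Treg by 0.32 (adjusted p = 0.0297), and 7 alternatives ended that call, with a highest adjusted p of 0.127. In Teff the tumour minus spleen difference was 0.28 (interval 0.08 to 0.48, adjusted p = 0.0694). In DT-treated mice Relb read 7.95, 7.96, 7.83, 7.81 and 8.09 in Treg and 7.59, 7.88, 7.46, 7.39 and 8.14 in Teff. The DT groups overlapped, and the difference of 0.24 (interval -0.08 to 0.55, adjusted p = 0.451) was not called.

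Rel, the c-Rel subunit gene, was the member with the widest gap between Treg and Teff in tumour. It read 7.34 and 7.36 in tumour Teff against 8.33 and 8.38 in tumour Treg, and 7.93 and 7.80 in spleen Teff against 8.44 and 8.35 in spleen Treg. Treg from both tissues lay close together, and tumour Teff lay below spleen Teff. The Treg minus Teff difference was 1.01 in tumour (SE 0.088, 2.01-fold, adjusted p = 9.51e-05) and 0.53 in spleen (SE 0.088, 1.45-fold, adjusted p = 0.00514). Rel fell by 0.52 from spleen Teff to tumour Teff (1.43-fold lower, adjusted p = 0.00658), and differed by -0.04 between tumour and spleen Treg (interval -0.25 to 0.16, adjusted p = 0.784). The spleen call ended without spleen Teff replicate 2 (adjusted p = 0.0533), and the fall in Teff without spleen Teff replicate 1 (adjusted p = 0.0577). The larger difference in tumour than in spleen, by 0.47 (interval 0.19 to 0.76), was not called (adjusted p = 0.0761).

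On the DT arrays Rel read 6.21, 6.10, 6.19, 5.50 and 5.86 in Treg and 5.85, 5.85, 6.10, 5.40 and 5.78 in Teff. These values overlapped, with replicate 4 lowest in both groups, and the difference was 0.18 (interval -0.18 to 0.53, adjusted p = 0.663).

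Rela, the p65 subunit gene, passed the test in none of the 6 comparisons. It read 9.45 and 9.47 in spleen Teff, 9.63 and 9.58 in spleen Treg, 9.50 and 9.70 in tumour Teff and 9.44 and 9.49 in tumour Treg. The 4 group means spanned 0.15, the narrowest range among the 10 genes. The differences were 0.15 in spleen (interval -0.07 to 0.36, adjusted p = 0.401) and -0.13 in tumour (interval -0.35 to 0.08, adjusted p = 0.394). In DT-treated mice Rela read 9.51, 9.65, 9.30, 8.95 and 9.62 in Treg and 9.57, 9.88, 9.36, 9.40 and 10.18 in Teff. The groups overlapped, and the difference of -0.27 (interval -0.67 to 0.13) had an adjusted p of 0.516.

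Nfkb1, which encodes p105 and p50, was called in 1 comparison. It read 10.07 and 10.04 in tumour Teff and 10.34 and 10.43 in tumour Treg, a difference of 0.33 (SE 0.096, 1.26-fold, adjusted p = 0.0377). This call ended in 8 of 15 alternatives, the replicate block and the removal of any 1 tumour array among them. In spleen it read 10.23 and 10.11 in Teff and 10.52 and 10.35 in Treg, and the difference of 0.27 was not called (adjusted p = 0.118). Nfkb1 in DT-treated mice read 10.14, 10.06, 10.20, 10.13 and 9.91 in Treg and 10.25, 10.44, 10.26, 10.30 and 10.01 in Teff. The groups overlapped, and the difference was -0.17 (interval -0.39 to 0.06, adjusted p = 0.464).

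**Figure D3:**
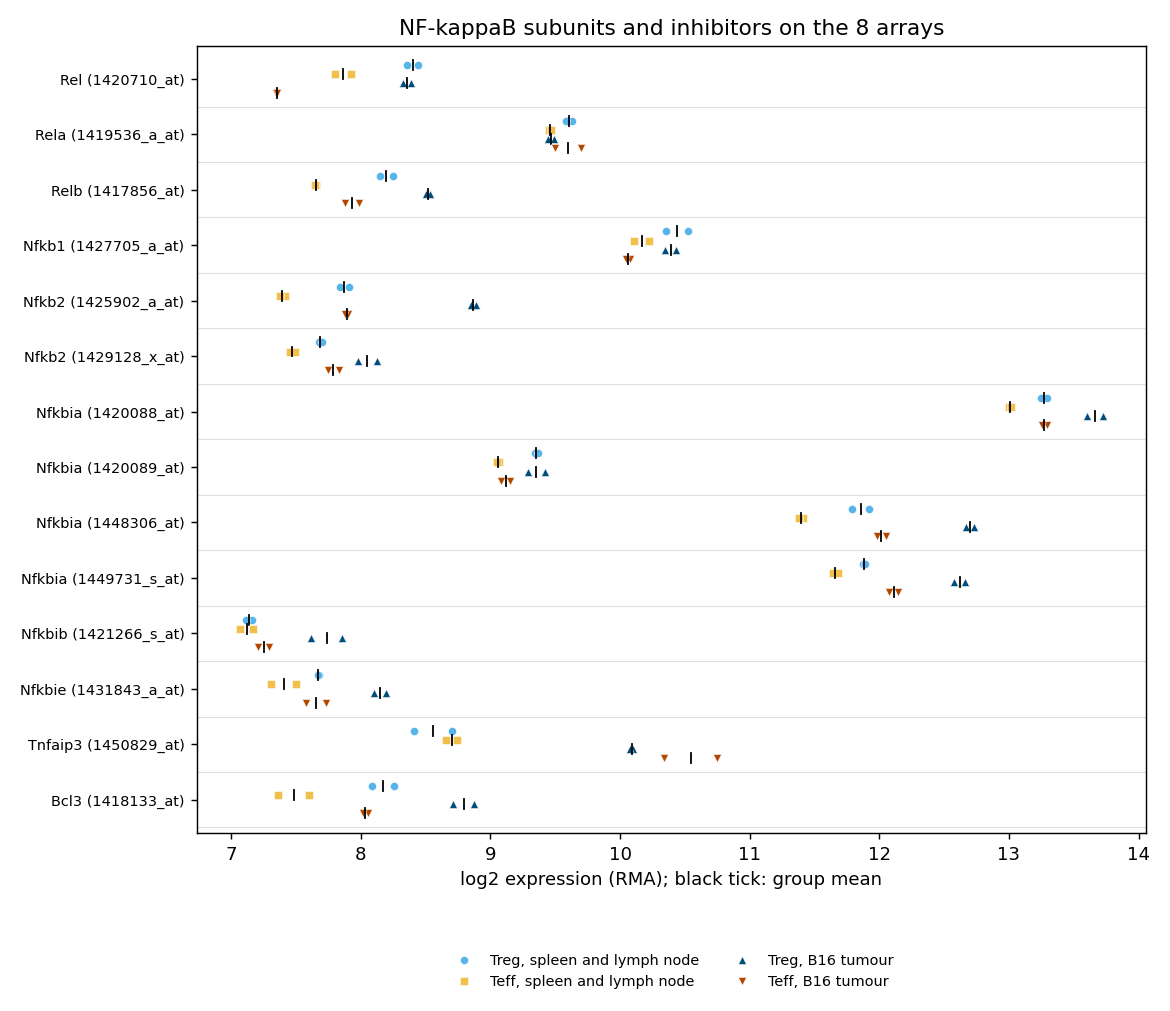
Log2 expression (RMA) of the 14 member probe sets on the 8 arrays, 1 symbol per array and a black tick at each group mean. Tumour Treg (dark triangles) lie highest for Nfkb2, Relb, Bcl3, Nfkbib, Nfkbie and 3 of 4 Nfkbia probe sets, and both tumour groups lie above both spleen groups for Tnfaip3; levels are not comparable between rows.

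Nfkbia, which encodes IκBα, the inhibitor that is degraded and remade in each canonical response, was measured by 5 probe sets on the 10 arrays and 4 on the 8, and they did not all give the same result. On 1448306_at DT Treg read 10.97, 11.04, 11.03, 11.03 and 11.00 and DT Teff 10.41, 10.66, 10.58, 10.21 and 10.62. The DT Treg arrays were nearly level and all above DT Teff, by 0.52 (SE 0.101, 1.43-fold, adjusted p = 0.00817). The same probe set read 11.41 and 11.38 in spleen Teff, 11.92 and 11.79 in spleen Treg, 12.05 and 11.98 in tumour Teff and 12.67 and 12.73 in tumour Treg. The groups, of 2 arrays each, ascended in that order without overlap. Treg exceeded Teff by 0.46 in spleen (adjusted p = 0.0105) and by 0.68 in tumour (1.61-fold, adjusted p = 0.000755), and tumour exceeded spleen by 0.84 in Treg (1.80-fold, adjusted p = 0.000283) and by 0.62 in Teff (1.54-fold, adjusted p = 0.00277). The spleen call ended without spleen Teff replicate 1 or 2 or without spleen Treg replicate 1 (highest adjusted p = 0.0779).

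In tumour, Nfkbia was also higher in Treg on 1449731_s_at, by 0.51 (adjusted p = 0.00261), and on 1420088_at, by 0.39 (adjusted p = 0.0118), while 1420089_at differed by 0.24 (adjusted p = 0.0884). The call on 1420088_at ended without tumour Teff replicate 2 (adjusted p = 0.0576) or without tumour Treg replicate 1 (adjusted p = 0.0817). In spleen these 3 probe sets differed by 0.22 to 0.29 and none was called. In DT-treated mice the other 4 probe sets of Nfkbia had differences of -0.05 to 0.21, none called. On 1438157_s_at, which is not on the 8 arrays, DT Treg read 12.17, 12.25, 12.21, 10.80 and 12.20 and DT Teff 11.91, 11.85, 11.91, 11.72 and 11.90. DT Treg replicate 4 lay below all other arrays and the remaining 4 DT Treg arrays above all DT Teff arrays. The difference was 0.07 (adjusted p = 0.934) with that array and 0.35 (adjusted p = 0.0364) without it, and 1 of 16 alternatives passed. Leaving out the 3 less correlated arrays, which include it, gave 0.31 (adjusted p = 0.0505).

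Nfkbib, which encodes IκBβ, read 7.07 and 7.17 in spleen Teff, 7.16 and 7.12 in spleen Treg, 7.21 and 7.29 in tumour Teff and 7.62 and 7.86 in tumour Treg on 1421266_s_at. Tumour Treg stood above the other 3 groups, which were close together. It was higher in tumour Treg than in tumour Teff by 0.49 (SE 0.103, 1.40-fold, adjusted p = 0.00967) and than in spleen Treg by 0.60 (1.52-fold, adjusted p = 0.00397), and the spleen Treg minus Teff difference was 0.02 (interval -0.22 to 0.25). The test of the larger difference in tumour gave 0.47 and was not called (adjusted p = 0.124). The tumour Treg minus Teff call ended without tumour Teff replicate 1 or without tumour Treg replicate 2 (highest adjusted p = 0.0667). On the DT arrays Nfkbib read 8.39, 8.43, 8.47, 8.08 and 8.59 in Treg and 8.00, 8.01, 7.78, 7.66 and 8.29 in Teff. Only the lowest Treg array and the highest Teff array crossed, and the difference of 0.44 (interval 0.15 to 0.74) had an adjusted p of 0.0789. Without the 3 less correlated arrays it was 0.54, with an adjusted p of 0.00613. The second Nfkbib probe set, 1446718_at, read 3.22 to 4.07, at or below the array medians of 4.05 to 4.14, and gives no usable level.

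Nfkbie, which encodes IκBε, read 7.50 and 7.31 in spleen Teff, 7.68 and 7.67 in spleen Treg, 7.74 and 7.58 in tumour Teff and 8.11 and 8.20 in tumour Treg on 1431843_a_at. Tumour Treg again stood apart. They exceeded tumour Teff by 0.49 (SE 0.101, 1.41-fold, adjusted p = 0.00835) and spleen Treg by 0.48 (1.39-fold, adjusted p = 0.0106). The first call ended without replicate 2 of tumour Teff or of tumour Treg (higher of both adjusted p = 0.057), and the second without tumour Treg replicate 2 (adjusted p = 0.0673). In spleen the difference was 0.27 (adjusted p = 0.143). In DT-treated mice the 2 Nfkbie probe sets differed by 0.19 (adjusted p = 0.419) and -0.09 (adjusted p = 0.811), with overlapping groups.

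**Figure D4:**
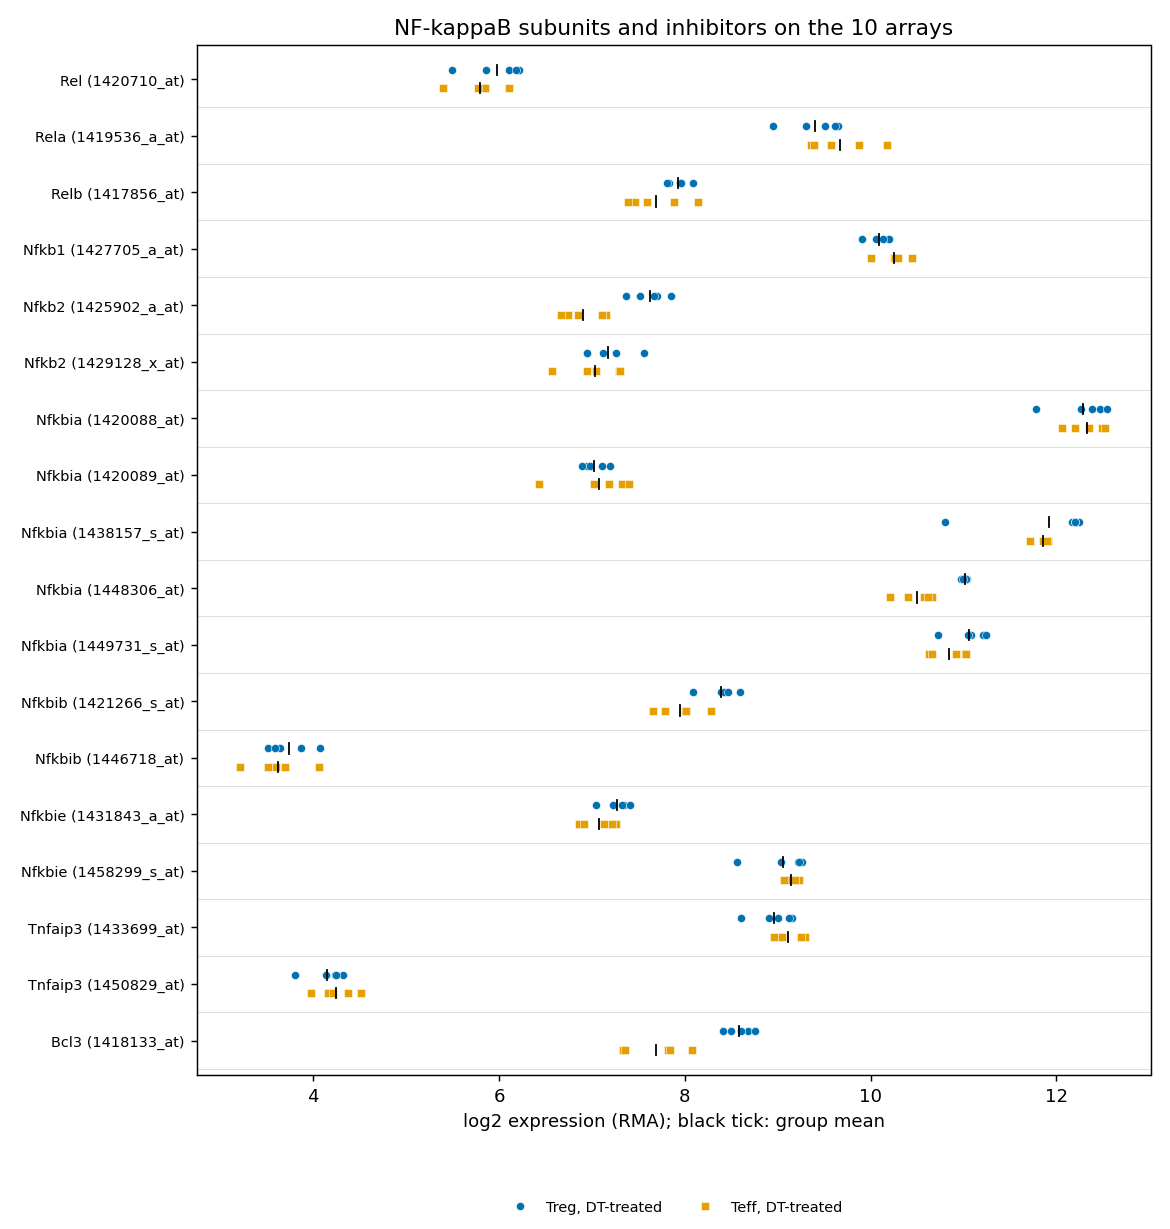
Log2 expression (RMA) of the 18 member probe sets on the 10 arrays of DT-treated mice, 1 symbol per array and a black tick at each group mean. Treg (circles) lie wholly above Teff (squares) for Bcl3, Nfkb2 1425902_a_at and Nfkbia 1448306_at; levels are not comparable between rows.

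Bcl3 encodes a nuclear member of the IκB family that binds p50 and p52 dimers and can raise transcription from them. It read 8.50, 8.68, 8.41, 8.60 and 8.76 in DT Treg and 7.82, 8.08, 7.33, 7.36 and 7.84 in DT Teff. No Teff array reached the lowest Treg array, and the difference of 0.90 (SE 0.151, 1.87-fold, adjusted p = 0.00315) was the largest of the 18 probe sets in these mice. Without the 3 less correlated arrays it was 0.84 (adjusted p = 0.00506). On the 8 arrays Bcl3 read 7.60 and 7.36 in spleen Teff, 8.26 and 8.09 in spleen Treg, 8.05 and 8.02 in tumour Teff and 8.71 and 8.88 in tumour Treg. As for Nfkb2, spleen Teff were lowest, tumour Treg highest and the remaining groups between them. Treg exceeded Teff by 0.69 in spleen (SE 0.114, 1.61-fold, adjusted p = 0.00531) and by 0.76 in tumour (SE 0.114, 1.69-fold, adjusted p = 0.00173). Tumour exceeded spleen by 0.62 in Treg (adjusted p = 0.00545) and by 0.55 in Teff (adjusted p = 0.0147), the latter call ending without either tumour Teff array or without spleen Teff replicate 2 (highest adjusted p = 0.107). The Treg minus Teff differences of the 2 tissues differed by 0.07 (interval -0.30 to 0.44, adjusted p = 0.876).

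Tnfaip3, which encodes the ubiquitin-editing enzyme A20 that switches off signalling upstream of the IκB kinases, was the member that differed most by tissue. On 1450829_at, its only probe set on the 8 arrays, it read 8.74 and 8.66 in spleen Teff and 8.41 and 8.70 in spleen Treg. In tumour it read 10.75 and 10.34 in Teff and 10.10 and 10.08 in Treg. All 4 tumour arrays were above all 4 spleen arrays, and in spleen Treg and Teff overlapped. Tumour exceeded spleen by 1.84 in Teff (SE 0.147, 3.59-fold, adjusted p = 0.000209) and by 1.53 in Treg (SE 0.147, 2.90-fold, adjusted p = 0.000192). Within tumour the Treg minus Teff difference was -0.46 (interval -0.79 to -0.12) and was not called (adjusted p = 0.0576), and it passed in 3 alternatives, one of them without tumour Teff replicate 2 (adjusted p = 0.0154). In spleen it was -0.15 (interval -0.48 to 0.19, adjusted p = 0.615).

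The probe sets of Tnfaip3 on the DT arrays gave no difference that passed the test. On 1433699_at, which is not on the 8 arrays, DT Treg read 9.16, 9.13, 9.01, 8.60 and 8.90 and DT Teff 9.03, 9.30, 9.26, 9.05 and 8.96, a difference of -0.16 (interval -0.43 to 0.11, adjusted p = 0.593). The groups overlapped. On 1450829_at, the probe set shared with the 8 arrays, the difference was -0.10 (adjusted p = 0.784). There the DT arrays read 3.80 to 4.51, near the array medians, although 1433699_at read 8.60 to 9.30 on the same arrays.

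**Figure D5:**
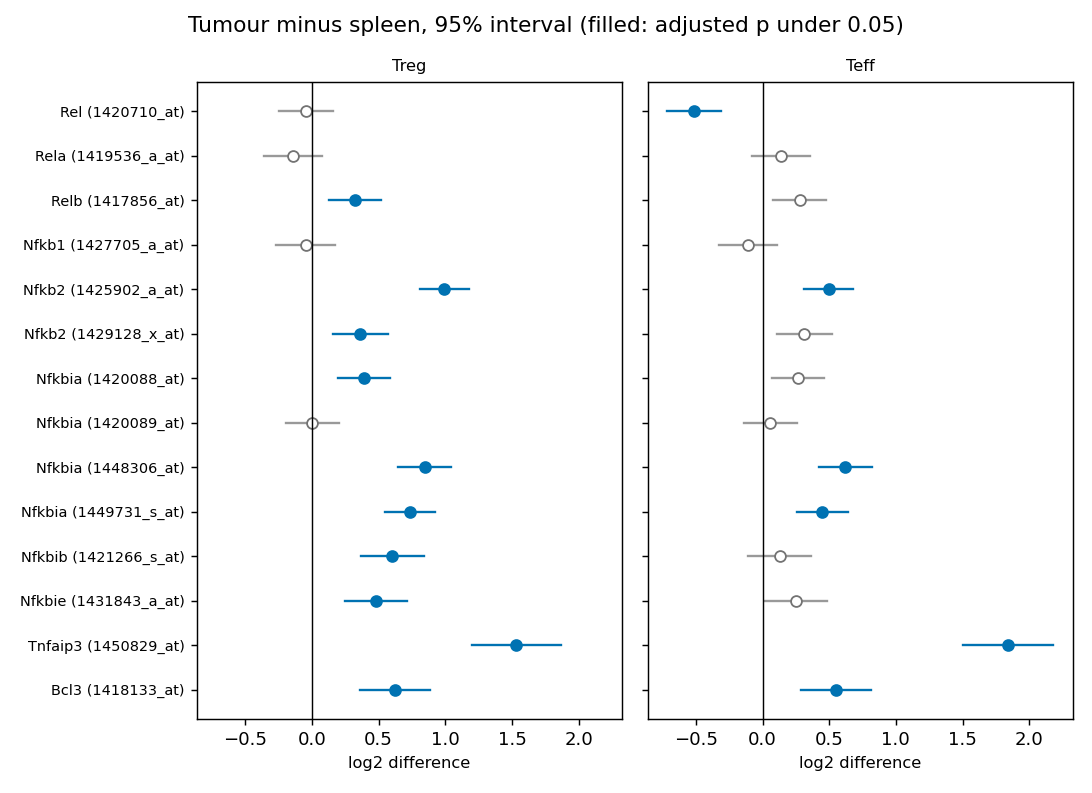
Log2 difference, tumour minus spleen, of the 14 member probe sets with 95% confidence intervals, in Treg (left) and Teff (right). Filled points had an adjusted p under 0.05; Tnfaip3 is the farthest from 0 in both, and Rel lies below 0 in Teff at -0.52.

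Within the family, Nfkb2, Bcl3 and 1 of the Nfkbia probe sets ran closely together over the 18 arrays. On deviations from each table's mean, Pearson's r over the 18 arrays was 0.956 between Nfkb2 (1425902_a_at) and Nfkbia (1448306_at), 0.940 between Nfkb2 and Bcl3, 0.928 between Nfkb2 and Nfkbie and 0.903 between Nfkbia (1448306_at) and Bcl3. Over the 18 arrays the other Nfkbia probe sets followed Nfkb2 less closely, with r of 0.85 for 1449731_s_at, 0.50 for 1420088_at and 0.34 for 1420089_at. Over the 8 arrays alone these were 0.972, 0.979 and 0.691, against 0.986 for 1448306_at. Over the 10 arrays they were 0.649, -0.0185 and 0.198, against 0.916. Rel had an r of 0.46 with Nfkb2 over the 18 arrays. With Tnfaip3 (1450829_at) the r of Rel was -0.50 over the 8 arrays and 0.56 over the 10, where that probe set was near the array medians. Rela had an r of -0.14 with Nfkbia (1448306_at). These values are descriptions, since the arrays share their groups and processing. Among the 4 groups of the 8 arrays the group means ranged over 1.99 for Tnfaip3, 1.47 for Nfkb2, 1.31 for Bcl3, 1.05 for Rel, 0.87 for Relb, 0.75 for Nfkbie, 0.65 for Nfkbia (1420088_at, the probe set that stands for the gene, against 1.304 on 1448306_at), 0.62 for Nfkbib, 0.38 for Nfkb1 and 0.15 for Rela.

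The genes outside the family with the closest course were sought among 1209 genes with a probe set on both kinds of array and an SD of at least 0.5. For Nfkb2 they were Fam110a (r = 0.969), Plxnd1 (0.968) and Il12rb1 (0.959), and for Bcl3 Plxnd1 (0.955), Icam1 (0.934) and Slc2a3 (0.924). For Tnfaip3 they were Dct (0.951), Pmel (0.942) and Tyrp1 (0.936), which are pigment cell genes and stood on the melanoma marker list. Dct was at a mean of 9.99 in tumour Treg, 9.71 in tumour Teff, 3.66 in spleen Treg and 3.85 in spleen Teff. The part of tumour cell RNA in the Tnfaip3 difference was not tested.

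The rest of the pathway was read from lists of textbook genes, with 1 probe set a gene. On that footing, 5.10% of genes were higher and 3.82% lower in Treg in DT-treated mice, 7.22% and 6.12% in spleen, and 13.7% and 11.2% in tumour. Between tumour and spleen 11% were higher and 11.8% lower in Treg, and 7.36% and 7.61% in Teff, and the test between tissues called 2.63% higher and 2.9% lower. The members themselves counted 2, 4 and 8 of 10 genes higher in Treg in DT-treated mice, spleen and tumour, and 0 lower. The median Treg minus Teff difference of all genes was 0.03, -0.0026 and 0.0087.

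Among receptors that signal to NF-κB, 6 of 14 were higher and 2 lower in Treg in each of the 3 settings. Tnfrsf9 (4-1BB), a costimulatory receptor of activated T cells, exceeded Teff levels by 2.48 (DT-treated mice), 2.79 (spleen) and 3.39 (tumour) in Treg, and Tnfrsf4 (OX40) by 1.86, 2.64 and 2.40. Tnfrsf1b, a receptor for TNF, was also called higher in all 3 settings, at 2.33 (spleen), 2.16 (DT-treated mice) and 1.96 (tumour). So was Il1rl1, the receptor for interleukin-33, at 2.82 (spleen), 2.33 (tumour) and 1.17 (DT-treated mice). Il1r1, the interleukin-1 receptor, was lower by 1.97 in DT-treated mice (log2 difference -1.97, adjusted p = 9.76e-05). From spleen to tumour, Il18r1, the interleukin-18 receptor, was higher by 2.41 in Treg and 1.62 in Teff. In that comparison 6 receptors were higher and 2 lower in Treg, and 6 higher and 1 lower in Teff. The median Treg minus Teff difference of the list was 0.03, 0.04 and 0.11 in DT-treated mice, spleen and tumour.

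Among kinases and adaptors more genes were lower than higher in Treg. In DT-treated mice 0 of 19 were higher in Treg and 2 lower, among them Ikbke (-0.57), which encodes the IκB kinase-related IKKε. In spleen 1 of 17 was higher and 4 lower, and in tumour 2 and 5. Prkcq, the antigen receptor kinase PKCθ, was lower in tumour Treg than in tumour Teff, at -1.62 (adjusted p = 2.08e-05), and differed more in tumour than in spleen, at -1.12 (adjusted p = 0.00495). Birc2, the ubiquitin ligase cIAP1 of the noncanonical route, was higher in Treg by 0.52 in spleen and 0.88 in tumour, and higher in tumour than in spleen by 1.09 in Treg and 0.72 in Teff. Ikbkb, the catalytic subunit IKKβ, was lower in Treg at -0.34 in spleen and -0.41 in tumour. Between tumour and spleen 2 were higher and 4 lower in Treg, and 2 higher and 3 lower in Teff. The median Treg minus Teff difference of the list was -0.19, -0.12 and -0.09 in the 3 settings.

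Most other IκB-like proteins and regulators passed the test in no comparison of Treg with Teff. In DT-treated mice 1 of 17 was higher in Treg, Commd1 (0.71), which promotes the removal of Rela from chromatin, and 1 lower, Tnip2 (-0.54), a partner of A20. In spleen 3 of 14 were higher and 0 lower, with Tnip1, another partner of A20, at 0.65, and in tumour 3 were higher and 0 lower, with Commd1 at 0.71 and Traf3, which restrains the noncanonical route, at 0.69. Between tumour and spleen 4 were higher and 1 lower in Treg, and 3 higher and 0 lower in Teff. Zc3h12a, an RNase that removes inflammatory transcripts, was higher in tumour by 0.81 in Treg and 0.63 in Teff. Nfkbiz, which encodes the nuclear IκB family member IκBζ, was higher in tumour by 0.83 in Teff. The median Treg minus Teff difference of the list was 0.14 in DT-treated mice, 0.07 in spleen and 0.20 in tumour.

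Known NF-κB target genes were split. Of 22 measured, 6 were higher and 4 lower in Treg in DT-treated mice, 7 and 4 in spleen and 10 and 6 in tumour. Il2ra, the interleukin-2 receptor chain that also stood on the Treg marker list, was higher in Treg by 4.04, 4.64 and 4.25 in the 3 settings. Icam1, an adhesion molecule, was higher by 1.14 in DT-treated mice and 1.13 in spleen, and Cd83 by 2.84 in spleen and 2.91 in tumour. Il2, the cytokine, was lower in Treg in each setting, at -3.31, -2.51 and -4.12. Between tumour and spleen 11 targets were higher and 3 lower in Treg, and 10 higher and 2 lower in Teff. Ccl3 was higher in tumour Treg than in spleen Treg by 4.19 and Ccl4 by 2.50, both chemokines, and Cd83 was lower at -1.07 in Treg and -1.14 in Teff. The median Treg minus Teff difference of the targets was 0.08, 0.16 and 0.34 in the 3 settings. The marker levels of other cell types given above apply here too, and their part was not tested.

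Immediate early genes, which respond to stimulation within minutes, were mostly lower in Treg where they differed. Of 16 genes, 0 were higher and 4 lower in DT-treated mice, 0 and 2 in spleen, and 1 and 9 in tumour. In tumour Btg2 was at -1.67, Fosb at -1.41 and Fos at -1.16, and Fos differed more in tumour than in spleen, at -1.05 (adjusted p = 0.00434). Between tumour and spleen 3 were higher and 6 lower in Treg, and 3 higher and 1 lower in Teff. The median Treg minus Teff difference of the list was -0.10 in DT-treated mice, -0.18 in spleen and -0.59 in tumour, and that of the members with 1 probe set a gene was 0.07, 0.27 and 0.49. In the test between tissues the lists had 0 regulators, 0 kinases and adaptors, 2 receptors, 2 targets and 0 immediate early genes called higher, and 0, 1, 1, 2 and 3 called lower.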

How the data were processed

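RNA of sorted CD4 T cells was measured on 18 arrays in 6 groups, which were taken from the sample titles. The deposited values are log2 expression values that the authors made with RMA, a method of background correction, quantile normalisation and summary over probes, as given in the submitters' processing notes. They come as a table of 10 arrays and a table of 8, normalised separately, and no scanner intensities were used. The number of arrays limits the precision. Members were found by the gene name in a further deposited log2 table of the authors. In it 5 columns matched the DT Treg arrays within 5.0e-09, and 16 further value columns, which could not be tied to a sample, were not used.

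The 10 arrays were fitted alone and the 8 arrays with 1 coefficient per group and a shared spread, with lmFit and eBayes of limma 3.58.1 (R 4.3.3), without block or covariates, and with Benjamini-Hochberg adjustment over all 45037 and 22626 probe sets other than controls. Every adjusted p comes from limma, and a call means an adjusted p under 0.05. No filter or rescaling was applied. The script was tested on simulated data. Other genes were named with current symbols from RefSeq (GRCm38.p6), 31995 probe sets of the 10 arrays directly, 2978 by synonym and 540 by accession, and each gene was represented by its probe set with the highest mean.

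Named genes were every member probe set, Foxp3, up to 3 genes per list, comparison and direction with the largest difference among those called, and the 3 genes most like each of the 3 members with the widest range of group means. The members and lists were chosen with earlier results of these data known. Marker lists not named in the results (plasma cells, neutrophils, NK cells, erythroid cells) held 3 to 8 measured genes, with at most 2 called in any 1 comparison. In DT Treg 2 of 5 NK cell markers were lower (Eomes at -1.58 and Klrb1c at -1.10), where 3.82% of genes were lower. Eomes was also lower in Treg in spleen (-2.13) and in tumour (-2.04). The plasma cell gene Jchain differed by -3.64 between tumour and spleen Teff and by -2.23 between tumour and spleen Treg. Among neutrophil markers Ltf was higher in tumour Treg than in tumour Teff by 1.83 and than in spleen Treg by 1.54. Their part in the results was not tested. Alternatives were a replicate block, 1 probe set a gene, dim probe sets left out, a further quantile normalisation, median centring, trended and robust variances, 2 groups fitted alone, and leaving out each array in turn or the 3 less correlated arrays.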

Additional observations from a re-analysis of the deposited data

Results flagged for a closer look

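Nfkbia probe set 1438157_s_at read 10.80 in DT Treg replicate 4, while the other 4 DT Treg arrays read 12.17 to 12.25. The gap was 0.944 of the group's range, above the critical value of 0.71 for 5 samples. Of 36 sets of 5 values examined in this way, 1 stood out, where chance gives about 1 in 20. The same array had the lowest mean correlation with its group among the DT Treg arrays, at 0.981.

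Nfkb2 probe set 1425902_a_at had a Treg minus Teff difference that was larger in tumour than in spleen by 0.4968 on the log2 scale (adjusted p = 0.0455 in limma), and the second Nfkb2 probe set, 1429128_x_at, differed between the tissues by 0.05 (adjusted p = 0.891).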

How the results depend on the processing

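Of 35 calls of a member probe set in a comparison, 20 held under every alternative tried and 15 were lost under at least 1, and 14 of 53 uncalled results passed under at least 1. No called difference changed sign. With the replicate number as a block (replicate block), 4 member probe sets were called in DT-treated mice, 5 in spleen, 9 in tumour, 10 between tumour and spleen in Treg, 6 in Teff and 0 in the test between tissues. With each group's mean removed from every probe set, same-numbered DT arrays correlated by 0.04 to 0.52. Replicate 1 stayed near 0, at 0.04, while 3 of 5 pairs correlated best with their own number. The labels do not say that a number marks a shared source, so the main fit has no block. Whether the DT samples are paired cannot be told from these values. For the 8 arrays the values were -0.12 to 0.18. Over all probe sets in DT-treated mice 3052 were called, 5353 with the block and 5948 without the 3 less correlated arrays.

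Trended and robust variances gave 9 called member probe sets in spleen where 5 were reported, and 3 in the test between tissues where 1 was reported. That test called 2 with dim probe sets left out, 0 after a further quantile normalisation and 0 without any 1 array. Leaving out 1 array at a time gave 3 to 5 calls in DT-treated mice, with 5 only without DT Treg replicate 4, and 2 to 5 in spleen, with 2 only without spleen Teff replicate 2. In DT-treated mice Nfkbib passed with the replicate block (adjusted p = 0.0179), without DT Treg replicate 4 (0.0361) and without DT Teff replicate 5 (0.0221). The cause of these changes was not tested. Most member counts under other settings are given without the number of all probe sets called there. Such counts cannot tell a change of the members from a change over all probe sets. Where an array was left out of a group of 2, the remaining array was assumed to vary like the other groups.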
